A study of Gallus gallus with 6 samples.

Results

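The 9 genes described here encode Eph receptors and ephrins: the receptors EPHA2, EPHA3, EPHA4, EPHA7, EPHB2 and EPHB3 and the ligands EFNA5, EFNB1 and EFNB2. They were chosen by symbol, and each matched 1 of the 16561 entries of the expression table. The table holds RNA-seq values of lens epithelial cells (3 libraries) and lens fiber cells (3 libraries) from chick lenses at embryonic day 13. All lenses came from untreated White leghorn embryos. Each library is a pool of lenses that were microdissected into epithelium, central and equatorial cells together, and fibers, peripheral and central together. The libraries of a cell type are therefore averages over zones, and fewer cells of a kind cannot be told apart from less RNA per cell.

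Eph receptors form the largest family of receptor tyrosine kinases. Their ligands, the ephrins, are bound to the membrane of the neighboring cell, so that signaling needs cell contact and can run forward into the cell with the receptor and in reverse into the cell with the ligand. Ephrin-A ligands are held by a lipid anchor and bind mainly EphA receptors. Ephrin-B ligands span the membrane and bind mainly EphB receptors, and EphA4 binds ligands of both classes. In the lens, EPHA2 is known as a cataract gene in humans, and in mice EphA2 and ephrin-A5 are needed for orderly packing of fibers and for an intact epithelium, respectively.

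Values are FPKM (fragments per transcript, scaled to its length and to all mapped fragments of the library), which allow levels of different genes to be compared per length. They carry no read numbers, and sequencing depth is unknown. A value of 0.0001 stands in for 0. Summed FPKM were 213591 to 220089 in the epithelial libraries and 221749 to 232329 in the fiber libraries. Markers of both cell types followed the labels. The 6 epithelial markers found (PAX6, CDH1, GJA1, ITGA6, MEIS1 and CCND1, of a list of 8) summed to 315 to 364 FPKM in epithelial and 68.5 to 97.9 FPKM in fiber libraries, and 5 of them were called lower in fiber cells. The 9 fiber markers, BFSP1 and MIP among them, summed to 3311 to 4791 and to 13424 to 14503 FPKM, and 7 were called higher. Markers of other tissues were low, with exceptions. Blood vessel markers (7 of 7 found) summed to 2.96 to 4.11 FPKM in epithelial and 0.750 to 1.31 FPKM in fiber libraries, with VWF at or near the floor. Markers of cornea and connective tissue (8 of 8) summed to 60.7 to 72.6 and 14.6 to 18.0 FPKM. Most of it was PDGFRA. KERA was 3.27 to 3.89 FPKM in epithelial and 0.719 to 1.25 FPKM in fiber libraries. OGN was 0.424 to 0.489 FPKM and COL1A2 0.101 to 0.468 FPKM in epithelial libraries, against at most 0.0228 and 0.07 FPKM in fiber libraries. TWIST1 was at the floor and COL1A1 near it. PDGFRA and KERA were called lower in fiber cells. DCN was called higher, with 1.24 to 3.16 FPKM in epithelial and 5.19 to 6.38 FPKM in fiber libraries. Markers of retina and neurons (9 of 11) summed to 5.81 to 9.99 and 20.2 to 28.8 FPKM, mostly TUBB3, which was called higher in fiber cells. ELAVL4 was 1.44 to 2.25 FPKM in epithelial and 1.94 to 3.08 FPKM in fiber libraries and was not called. OTX2 and POU4F2 were at the floor. Erythrocyte markers (10 of 11) summed to 1.68 to 2.13 and 8.73 to 14.8 FPKM, pigment cell markers (8 of 8) to 3.73 to 6.47 and 1.77 to 3.25 FPKM, muscle markers (7 of 9) to 1.48 to 1.65 and 0.739 to 1.26 FPKM, and immune markers (6 of 7) to 5.10 to 5.85 and 4.67 to 5.27 FPKM. Of the erythrocyte markers HBZ and HBAA were called higher in fiber cells and EPB42 lower. Of the immune markers CD3E was called higher and CD74 lower. SLC45A2 of the pigment cell markers and ACTA1 of the muscle markers were called lower. The part of other cells in the changes below was not tested.

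The question asked of each gene was whether its level differed between fiber and epithelial cells. EPHA2 was the one gene of the 9 that rose in fiber cells, 1.84-fold, and it became the most abundant Eph transcript there. EPHB2 fell 5.20-fold below its epithelial level, and all 3 ligands fell, EFNA5 more than EFNB2 and EFNB2 more than EFNB1 by their estimates. EPHA3 and EPHB3 did not pass the thresholds, and EPHA4 and EPHA7 were too low to be tested. The test was limma on log2(FPKM + 0.1), run over the 10818 entries whose mean reached 0.5 FPKM. The log2 change is the fiber mean minus the epithelial mean on this scale. A gene was called where its Benjamini-Hochberg adjusted p over all these entries was under 0.05 and its log2 change passed 0.4 in size. Of the 7 genes tested, 1 was called higher and 4 lower. Over all tested entries 13.1% were called higher and 57.7% lower (70.8% in either direction), so the share of lower calls among these 7 was near the background. With each library centred on its median, 2 of the 7 were called higher (EPHA2 and EPHA3) and 3 lower (EPHB2, EFNA5 and EFNB2), against 30.2% and 29.3% of all tested entries. The median log2 change was −0.84 for the 7 genes and −0.62 for all tested entries. Because FPKM are relative within a library, each change is also given relative to that median.

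**Figure D1:**
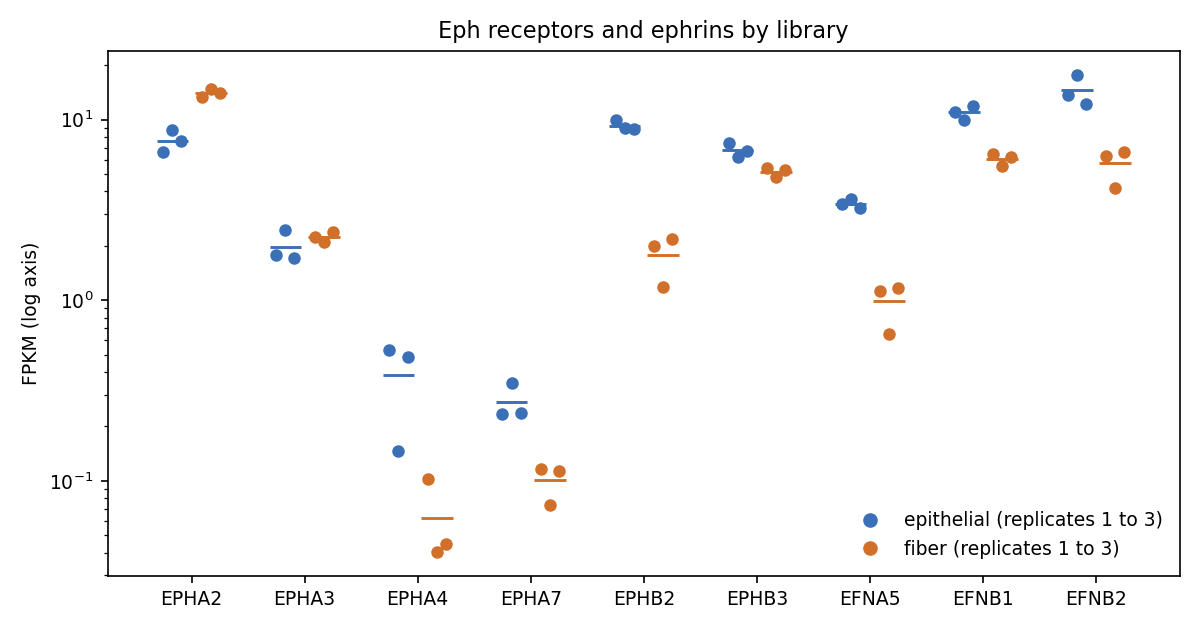
FPKM of the 9 genes (log axis) in each library, with 3 epithelial (blue) and 3 fiber libraries (orange) per gene in the order of replicates 1 to 3 and a line at the mean. EPHA2 lies higher in all 3 fiber libraries, EPHA3 overlaps between the cell types, and the other 7 genes lie lower in all 3 fiber libraries.

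EPHA2 (ENSGALG00000039895), the receptor tied to cataract and to fiber cell packing, measured 6.58, 8.73 and 7.60 FPKM in epithelial replicates 1, 2 and 3 and 13.4, 14.7 and 14.1 FPKM in fiber replicates 1, 2 and 3. Every fiber library lay above every epithelial one. The means were 7.63 ± 1.08 FPKM in epithelial and 14.1 ± 0.670 FPKM in fiber cells (SD, n = 3 each). The log2 change was 0.88 (SE 0.12, adjusted p = 0.000208 by limma), or 1.50 relative to the median gene. EPHA2 stood above 69.6% of the tested entries in epithelial cells by its FPKM and above 86.9% in fiber cells. By its log2 change it was the 807th highest of the 10818.

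EPHA3 (ENSGALG00000015403), an EphA receptor known from the chick for its graded expression in retinal axons, measured 1.78, 2.44 and 1.71 FPKM in the epithelial libraries and 2.24, 2.11 and 2.39 FPKM in the fiber libraries. The cell types overlapped, since epithelial replicate 2 was the highest of all 6. The log2 change was 0.19 (95% interval −0.18 to 0.57, limma adjusted p = 0.307), which leaves room for a rise of more than 0.4 as well as for a small fall. It was 0.35 without epithelial replicate 2, 0.13 without epithelial replicate 1 and 0.10 without epithelial replicate 3, and EPHA3 was called in none of these. Relative to the median gene the change was 0.81. With each library centred on its median EPHA3 was called higher (limma adjusted p = 0.00331), so its call rests on how the libraries are scaled.

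EPHA4 (ENSGALG00000005256), which can bind ephrins of both classes, was scarce. It measured 0.532, 0.146 and 0.485 FPKM in the epithelial libraries and 0.102, 0.0405 and 0.0450 FPKM in the fiber libraries. The groups did not overlap, but epithelial replicate 2 was close to fiber replicate 1. The mean over the 6 libraries was 0.225 FPKM, under the minimum of 0.5 FPKM. EPHA7 (ENSGALG00000015593), a receptor best known for repulsion between neural cells, was as scarce, with 0.235, 0.347 and 0.237 FPKM in epithelial and 0.116, 0.0736 and 0.113 FPKM in fiber libraries. Each epithelial library lay above each fiber library by a factor that is poorly fixed at this level. When no minimum was set, EPHA4 had a log2 change of −1.49 (limma adjusted p = 0.00998) and EPHA7 one of −0.89 (limma adjusted p = 0.00664). Both were then called, which would bring the lower calls to 6 of the 9 genes. That fit left out only entries at the floor in every library, 1867 of 16561. Of the remaining entries 7270 were called lower and 1596 higher. The 57.7% given above is for entries that reached 0.5 FPKM and is not the background of this count. Relative to the median gene the differences of EPHA4 and EPHA7 were −0.87 and −0.27.

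EPHB2 (ENSGALG00000004741), a receptor for ephrin-B ligands, was the most abundant of the 6 receptors in epithelial cells and showed the steepest fall of the 7 tested genes. It measured 9.95, 8.996 and 8.85 FPKM in the epithelial libraries and 1.99, 1.18 and 2.17 FPKM in the fiber libraries. The lowest epithelial library was far above the highest fiber library. The means were 9.26 ± 0.598 and 1.78 ± 0.531 FPKM (SD, n = 3 each), a level 5.20-fold higher in epithelial cells. The log2 change was −2.36 (SE 0.21, adjusted p = 2.89e-05 by limma), or −1.74 relative to the median gene, and 5.95% of the tested entries had a lower one.

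EPHB3 (ENSGALG00000008537), another ephrin-B receptor, was lower in fiber cells with the deposited scaling, by less than the threshold in size. It measured 7.44, 6.23 and 6.73 FPKM in the epithelial libraries and 5.41, 4.80 and 5.23 FPKM in the fiber libraries. The fiber libraries were all lower, by a small step. The log2 change of −0.39 (95% interval −0.64 to −0.15, limma adjusted p = 0.00923) had an adjusted p under 0.05 but missed the threshold in size. It passed both thresholds without epithelial replicate 2 (−0.45), without fiber replicate 1 (−0.43) or without fiber replicate 3 (−0.40). Relative to the median gene EPHB3 was 0.23 higher in fiber cells, so that its direction turned with median centring.

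EFNA5 (ENSGALG00000000280) encodes ephrin-A5, first described in the chick as a repulsive guidance signal for retinal axons. It measured 3.42, 3.61 and 3.25 FPKM in the epithelial libraries and 1.13, 0.653 and 1.17 FPKM in the fiber libraries. The epithelial libraries were tightly grouped, with a coefficient of variation of 5.28% against 29.2% in the fiber libraries, and the groups were well apart. The level was 3.48-fold higher in epithelial cells by the ratio of means. The log2 change was −1.74 (SE 0.21, adjusted p = 0.000139 by limma), or −1.12 relative to the median gene.

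EFNB2 (ENSGALG00000029175) encodes ephrin-B2, a transmembrane ligand also known as a marker of arteries. It was the most abundant of the 9 genes in epithelial cells, with 13.6, 17.7 and 12.3 FPKM, and measured 6.32, 4.196 and 6.64 FPKM in the fiber libraries. The groups did not overlap, although both varied more than those of EFNB1. The means were 14.5 ± 2.84 and 5.72 ± 1.33 FPKM (SD, n = 3 each). The log2 change was −1.34 (SE 0.20, adjusted p = 0.000415 by limma), or −0.72 relative to the median gene. Of the endothelial markers, CDH5 was 0.113 to 0.206 FPKM in epithelial and 0.0047 to 0.0696 FPKM in fiber libraries. KDR was 1.27 to 1.58 FPKM in epithelial and 0.0385 to 0.329 FPKM in fiber libraries. PECAM1 was 1.26 to 2.11 and 0.351 to 0.705 FPKM, and both were called lower in fiber cells. TIE1 went the other way, with 0.102 to 0.168 FPKM in epithelial and 0.190 to 0.256 FPKM in fiber libraries. The part of such cells in the level of EFNB2 was not tested.

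EFNB1 (ENSGALG00000036539) encodes ephrin-B1, the ligand mutated in human craniofrontonasal syndrome. It measured 11.02, 9.91 and 11.9 FPKM in the epithelial libraries and 6.48, 5.51 and 6.18 FPKM in the fiber libraries. The groups did not overlap. The means were 10.9 ± 0.999 and 6.06 ± 0.501 FPKM (SD, n = 3 each). The log2 change was −0.84 (SE 0.11, adjusted p = 0.000179 by limma). Relative to the median gene this was −0.23, and with median centring EFNB1 was no longer called (limma adjusted p = 0.0563).

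The libraries of the cell types did not overlap for 8 of the 9 genes, with fiber cells higher for 1 and lower for 7. Among all tested entries 16.1% did not overlap with fiber cells higher and 63.6% with fiber cells lower (79.7% in all). These shares are for entries that reached 0.5 FPKM, which EPHA4 and EPHA7, both lower in fiber cells without overlap, did not. The exact permutation test of single genes (two-sided) gave p = 0.1 for these 8 genes, the smallest p that 3 libraries against 3 allow, and p = 0.4 for EPHA3. The labels do not say whether same-numbered libraries came from the same lenses. The study describes each replicate as a pool of lenses dissected into both cell types, without linking the numbers of the libraries. The main test treats the libraries as unpaired, and a fit with a replicate block is given below. The p-values measure the spread between these pools.

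**Figure D2:**
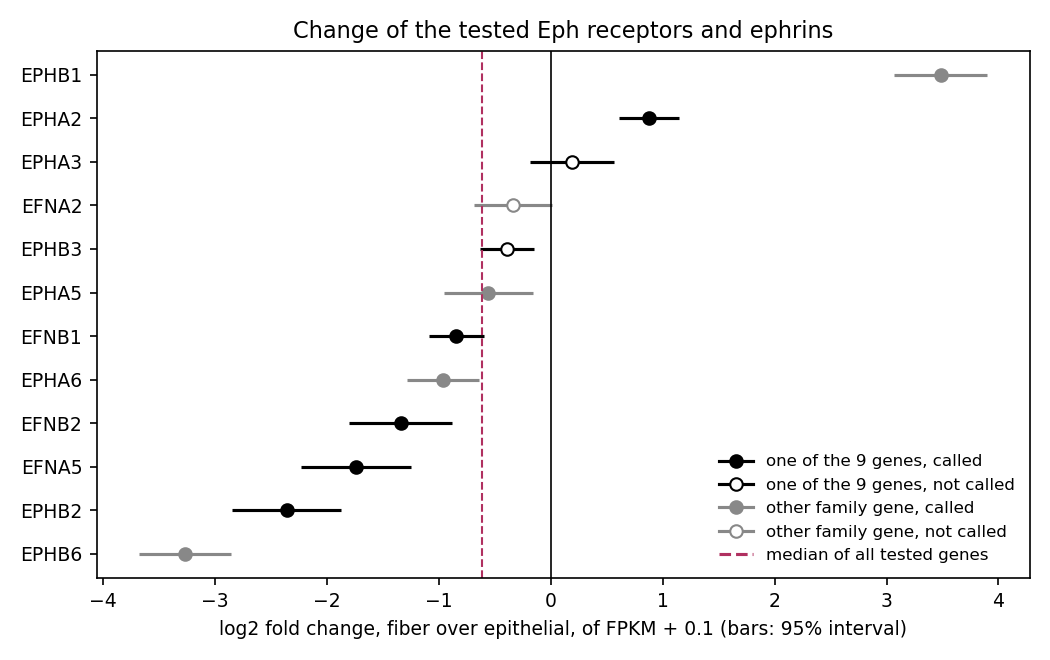
Log2 change of fiber over epithelial cells in log2(FPKM + 0.1) for the 7 tested genes of the 9 (black) and 5 other tested family genes (gray), with 95% intervals from limma and filled circles for called genes. EPHA2 (0.88) and EPHB1 (3.48) lie above 0 with their intervals, and the dashed line marks the median of all tested entries at −0.62, near which EFNB1, EPHB3, EPHA5 and EFNA2 lie.

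The order of levels differed between the cell types. In epithelial cells EFNB2 was highest, followed by EFNB1, EPHB2, EPHA2, EPHB3, EFNA5, EPHA3, EPHA4 and EPHA7. The libraries of EFNB1 and EPHB2 overlapped, as did those of EPHA2 and EPHB3 and those of EPHA4 and EPHA7, and the other neighbors in this order did not overlap. In fiber cells EPHA2 was highest and stood clear of all others, followed by EFNB1, EFNB2, EPHB3, EPHA3, EPHB2, EFNA5, EPHA7 and EPHA4. There the libraries of EFNB1 and EFNB2, of EFNB2 and EPHB3, of EPHA3 and EPHB2 and of EPHA7 and EPHA4 overlapped. EPHB2 thus passed from the third place to the sixth, with EPHA3 at its side.

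Shares within the family do not change when a library is multiplied by a factor. Of the summed FPKM of the 6 receptors, EPHA2 made up 24.8%, 32.5% and 29.7% in the epithelial libraries and 57.6%, 64.2% and 58.6% in the fiber libraries. EPHB2 went the other way, with 37.5%, 33.5% and 34.6% against 8.57%, 5.13% and 9.04%. The groups did not overlap for either gene. EPHB3 held 25.8% ± 2.47 in epithelial and 22.0% ± 1.18 in fiber cells (SD, n = 3 each), with overlapping libraries, and EPHA3 held 7.49% ± 1.38 and 9.59% ± 0.366. The 6 receptors together summed to 25.6 to 26.9 FPKM in epithelial and 22.9 to 24.0 FPKM in fiber libraries. With the deposited scaling their total thus differed far less than its makeup. Unlike the shares, this total depends on the scaling, and the median log2 change of all tested entries was −0.62. The ratio of EPHA2 to EPHB2 was 0.661, 0.970 and 0.859 in the epithelial libraries and 6.72, 12.5 and 6.48 in the fiber libraries.

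With the deposited scaling the ligands were lower as a group, and they kept a more similar makeup. The 3 ligands summed to 28.1, 31.2 and 27.4 FPKM in the epithelial libraries and to 13.9, 10.4 and 13.99 FPKM in the fiber libraries. EFNA5 made up 11.9% ± 0.312 of this in epithelial and 7.59% ± 1.12 in fiber cells (SD, n = 3 each), without overlap. EFNB1 held 38.1% ± 5.93 and 48.0% ± 4.66, and EFNB2 held 50.0% ± 6.13 and 44.5% ± 3.56, the latter with overlapping libraries. With EFNA2, the other listed ephrin, also counted, EFNB1 held 32.4% and 36.4% with overlapping libraries. EFNB2 then held 42.5% and 33.8% without overlap. The ratio of the 6 receptors to the 3 ligands was 0.944, 0.861 and 0.934 in the epithelial libraries and 1.67, 2.21 and 1.72 in the fiber libraries. Receptor transcripts were thus slightly below ligand transcripts in every epithelial library and above them in every fiber library. With all listed family genes counted, the ratio was 1.09 to 1.23 in epithelial and 1.70 to 2.21 in fiber libraries, so that receptors exceeded ligands in both cell types and by more in fiber cells.

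**Figure D3:**
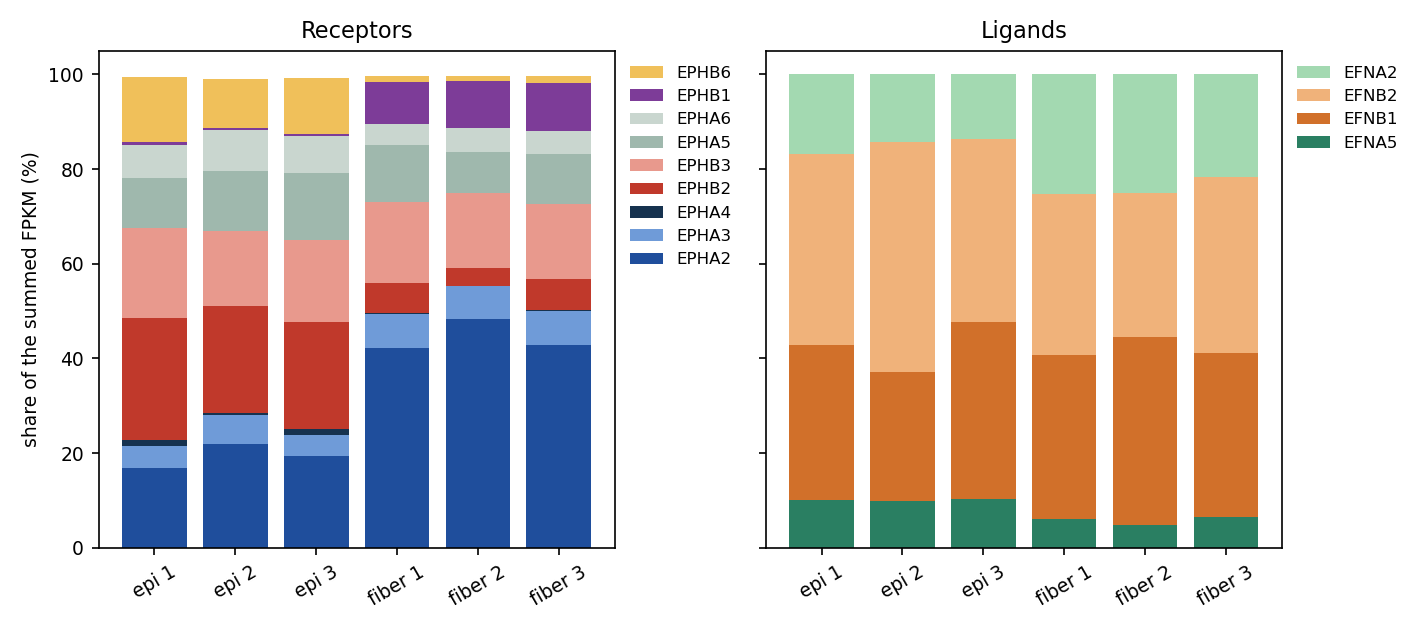
Share of each gene in the summed FPKM (%) of all listed Eph receptors (left) and of all listed ephrins (right) in each library, leaving out genes under 1% in every library. EPHA2 takes 42.3% to 48.3% of the receptor sum in fiber libraries against 16.9% to 22.0% in epithelial libraries, EPHB2 and EPHB6 shrink and EPHB1 appears in fiber libraries, while the ligand shares move less.

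The rest of the family was read from a list of 14 further symbols, of which 7 were listed (EPHA1, EPHA5, EPHA6, EPHA8, EPHB1, EPHB6 and EFNA2) and 5 tested. Of these 5, 1 was called higher and 3 lower, near the 57.7% of all tested entries called lower, and with median centring 1 was called higher and 1 lower. EPHB1 (ENSGALG00000006609), another ephrin-B receptor, rose from 0.190, 0.149 and 0.214 FPKM in the epithelial libraries to 2.82, 3.04 and 3.35 FPKM in the fiber libraries. This was 16.7-fold by the ratio of means, with a log2 change of 3.48 (SE 0.18, adjusted p = 3.20e-06 by limma), the 67th highest of all tested entries. EPHB6 (ENSGALG00000014749), a family member whose kinase domain lacks activity, fell from 5.34, 4.14 and 4.59 to 0.392, 0.323 and 0.480 FPKM, with a log2 change of −3.27 (SE 0.18, adjusted p = 3.89e-06 by limma). EPHB1 and EPHB6 each reached the minimum of 0.5 FPKM through the cell type in which they were high. The log2 change of EPHB1 was 1.78 with a pseudocount of 1. EPHA6 (log2 change −0.97) and EPHA5 (−0.56) fell with the deposited scaling, but relative to the median gene their changes were −0.35 and 0.06. The values of EPHA6 were identical to those of 2 entries without a symbol, so its level may not be its own. EFNA2 (−0.34, limma adjusted p = 0.0738) was not called and EPHA1 and EPHA8 were at or near the floor.

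With all listed genes counted, EphA receptors summed to 16.0, 20.2 and 18.6 FPKM in the epithelial libraries and to 21.0, 21.2 and 21.7 FPKM in the fiber libraries. EphB receptors summed to 22.9, 19.5 and 20.4 FPKM in epithelial and 10.6, 9.35 and 11.2 FPKM in fiber libraries. All such sums depend on the scaling of the libraries, whereas their ratios do not. The ratio of EphA to EphB was 0.882 ± 0.172 in epithelial and 2.06 ± 0.178 in fiber cells (SD, n = 3 each). Ephrin-A ligands, EFNA5 and EFNA2, summed to 8.52 ± 0.803 and 5.01 ± 0.883 FPKM, and ephrin-B ligands to 25.5 ± 1.88 and 11.8 ± 1.80 FPKM. Among the listed genes most ephrin transcript was thus of the B class in both cell types, and most receptor transcript in fiber cells was of the A class. EPHA9, EPHA10, EPHB4, EFNA1, EFNA3, EFNA4 and EFNB3 were looked for, but no entry carried these symbols. The class sums and the ratios of receptors to ligands leave them out.

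Fiber replicate 2 gave the lowest of the 3 fiber values for 8 of the 9 genes and the highest value of EPHA2. It was also the lowest for 49.8% of all tested entries and for 61.5% of those called lower in fiber cells. Its epithelial markers summed to 68.5 FPKM, against 92.2 and 97.9 FPKM in fiber replicates 1 and 3. Without it the log2 changes were 0.85 for EPHA2, −2.10 for EPHB2, −1.50 for EFNA5 and −1.14 for EFNB2, and all 4 genes were still called. Epithelial replicate 2 had the highest sum of fiber markers in its group (4791 FPKM, against 3311 and 4254 FPKM) and the highest epithelial values of 5 of the 9 genes: EPHA2 and EPHA3, but also EFNB2, EFNA5 and EPHA7, whose fiber values were lower. Epithelial replicate 2 was the highest of its group for 25.1% of all tested entries and for 51.7% of those called higher in fiber cells. It gave the lowest epithelial value of 3 of the 9 genes (EPHA4, EPHB3 and EFNB1). Without it the log2 change of EPHA2 was 0.98. The part of epithelial or fiber material carried over in the dissection was not tested.

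Genes that act with Eph receptors and ephrins were read from 3 further lists, whose counts stand against 57.7% of all tested entries called lower and 13.1% called higher. With median centring, where 29.3% were called lower and 30.2% higher, the lists in the order below had 7, 3 and 6 lower and 4, 2 and 3 higher calls. Among adaptors and exchange factors that couple Eph receptors to the cytoskeleton, 18 of 25 were tested, and 1 rose and 12 fell, with a median log2 change of −0.82. KALRN, a guanine nucleotide exchange factor, averaged 0.186 ± 0.0538 FPKM in epithelial and 1.65 ± 0.296 FPKM in fiber cells (SD, n = 3 each). It rose by a log2 change of 2.62 (limma adjusted p = 2.95e-05). KALRN reached the minimum of 0.5 FPKM through the fiber libraries, and its epithelial level was near the pseudocount of 0.1. VAV2, an exchange factor bound by activated Eph receptors, fell from 6.77 ± 0.872 to 1.24 ± 0.360 FPKM (log2 change −2.39, limma adjusted p = 3.06e-05). The entry named NCK1, with NCK2 as its other symbol, fell as steeply (log2 change −2.27), but its values were identical to those of SHROOM3 and may belong to either.

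Among genes of ephrin reverse signaling 12 of 14 were tested, and 1 rose and 8 fell, with a median of −0.70. SDCBP, which encodes syntenin, a binding partner of the tail of ephrin-B, was abundant and fell from 206 ± 15.3 to 56.0 ± 8.39 FPKM (log2 change −1.88, limma adjusted p = 7.46e-06). RGS3, which links ephrin-B to G proteins, fell to 0.115 ± 0.0523 FPKM from 1.05 ± 0.0456 FPKM, with a log2 change of −2.45. RGS3 reached the minimum of 0.5 FPKM through the epithelial libraries, and its fiber level was near the pseudocount of 0.1. STAT3, a transcription factor that acts in many pathways, rose from 10.5 ± 2.85 to 18.4 ± 0.963 FPKM (log2 change 0.83, limma adjusted p = 0.00431).

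Among genes for cleavage, dephosphorylation and removal 14 of 16 were tested, and 2 rose and 10 fell, with a median of −0.97. PTPRO, a phosphatase known in the chick to dephosphorylate Eph receptors, had the steepest fall of all these lists, from 4.34, 4.76 and 2.88 FPKM in the epithelial libraries to 0.219, 0.104 and 0.110 FPKM in the fiber libraries. Its log2 change was −4.07 (SE 0.26, adjusted p = 7.36e-06 by limma). PTPRO reached the minimum of 0.5 FPKM through the epithelial libraries. Its fiber level was near the pseudocount of 0.1, so the size of the fall depends on that setting. PTPRF, another receptor phosphatase, had a log2 change of −2.20. PSEN2, a subunit of the γ-secretase that cuts the stubs of cleaved receptors and ephrins, rose from 9.09 ± 1.19 to 18.6 ± 1.09 FPKM (log2 change 1.03, limma adjusted p = 7.48e-05), and ACP1, a small phosphatase that acts on Eph receptors, had a log2 change of 0.73.

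**Figure D4:**
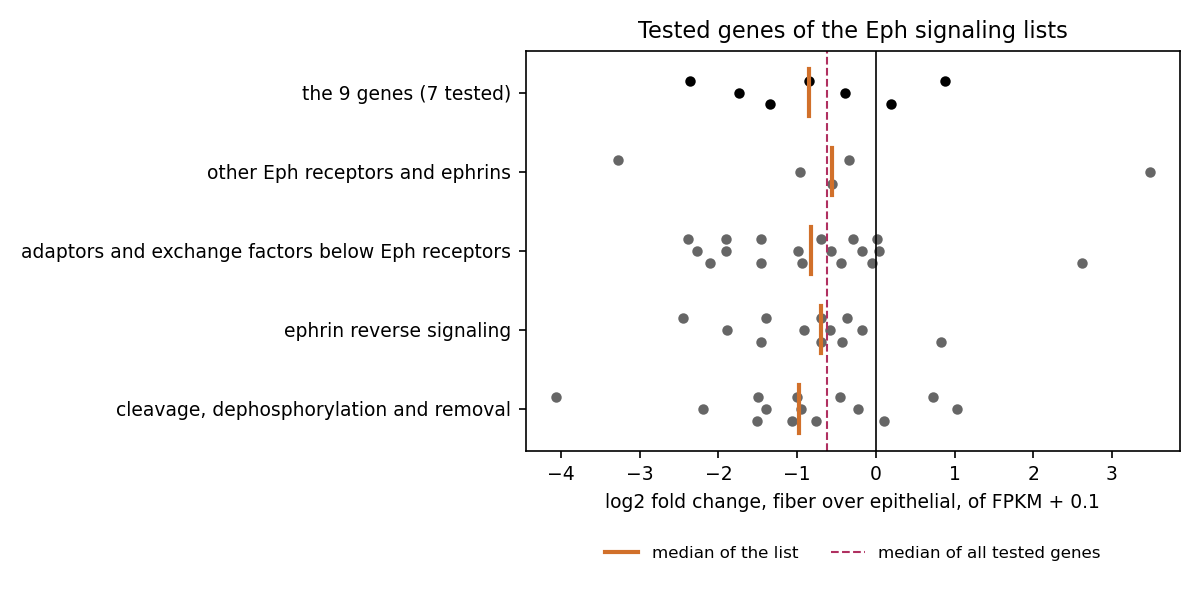
Log2 change of fiber over epithelial cells on the scale of log2(FPKM + 0.1) for each tested gene of the 9 and of 4 lists (points), with an orange bar at the median of each list and a dashed line at the median of all tested entries (−0.62). Medians lie between −0.97 and −0.56, and PTPRO (−4.07) and EPHB1 (3.48) are the outermost points.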

How the data were processed

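Total RNA of pooled, microdissected lenses was made by the authors into stranded libraries for paired-end sequencing. Cutadapt trimmed the reads, and the submitters' processing notes name Bowtie2, HISAT2, StringTie and the genome build galGal6. The deposited FPKM values are per gene and library, with 0.0001 in place of 0. The authors also deposited average FPKM per cell type, a fold change (ratio of the averages), its log2 value, and the p-values and q-values of their edgeR test, none of which was used. How reads shared by related genes were assigned is not given in the sources used here.

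The FPKM were compared as log2(FPKM + 0.1), which makes the changes of scarce genes smaller than the ratio of their FPKM, by limma 3.58.1 in R 4.3.3 with a mean-variance trend and cell type as the only term. The filter of a mean of 0.5 FPKM left out 5743 of 16561 entries. Depth is unknown, so precision was taken from the 3 libraries of each cell type. The model was run on simulated data with 200 changed entries, as many raised as lowered. That simulation held no shift of most entries, as these data do, so it cannot show how such a shift affects the calls. The 9 genes and all lists were chosen with earlier results of these data known. Genes named beside the 9 were the listed family genes and, in each list, the 2 called genes that changed most in each direction. The markers were named after their values were seen. Alternatives covered the pseudocount, the filter, the scaling, the settings of limma, a replicate block and each library left out. 1 further gene list is not reported here. No sequences are printed.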

Additional observations from a re-analysis of the deposited data

How the results depend on the processing

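EPHA2, EPHB2, EFNA5 and EFNB2 were called in the same direction under all 19 alternatives run, with log2 fold changes of 0.78 to 1.49, −2.52 to −1.75, −1.87 to −0.92 and −1.46 to −0.73. Most other calls that changed did so with the scaling of the libraries. With median centring 2 of the 9 genes were called higher, and over all entries 3263 were called higher and 3167 lower. EPHA3 was then called higher (0.80), EPHB3 turned to 0.22 and EFNB1 was not called (−0.23). EPHA5 turned to 0.049 and EFNA2 to 0.27. With division by the 75th percentile 2 of the 9 and 2223 entries were called higher, EPHA3 with them (0.52). With quantile normalization 2 of the 9 were called higher, and 2884 entries were called higher and 3228 lower. There EPHA3 was at 1.004, EPHB3 at 0.041, EPHA5 at 0.026 and EFNA2 at 0.21.

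With each library left out in turn 1 of the 9 was called higher and 4 to 5 lower, and 1363 to 1433 entries were called higher and 5979 to 6198 lower. EPHB3 lay between −0.45 and −0.33 and EFNA2 between −0.46 and −0.23, each called in some of these, EPHA3 between 0.10 and 0.35 without a call, and EPHA5 between −0.68 and −0.41. EPHA5 was no longer called without epithelial replicate 3 (−0.47), with totals rescaled without delta-crystallin, the main lens protein of the chick (−0.40), with the 75th percentile (−0.23) or when tested by limma against a size of 0.4 (adjusted p = 0.292). EPHA6 was not called with median centring (−0.36) or quantile normalization (−0.19). No share of one of the 9 genes among the 6 receptors or 3 ligands turned direction in these.

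Whether same-numbered libraries came from the same lenses is not given by the labels. Their deviations correlated with r of 0.0858, 0.0659 and 0.0666, all under 0.1. The main test treated the libraries as unpaired. Each library still correlated best with its own number, and the other pairs were negative (−0.0496 to −0.0235). Deviations from the mean of 3 libraries sum to 0, so the positive values push the other pairs below 0. The negative values are therefore no separate evidence of pairing. A replicate block left the calls of the 9 genes at 1 higher and 4 lower (1436 and 6268 over all entries), with an adjusted p of 0.000326 for EPHA2. Together with median centring the block gave 2 of the 9 higher, 3287 entries higher and 3186 lower, with EPHA3 at 0.80, EPHB3 at 0.22, EFNB1 at −0.23, EPHA5 at 0.049 and EFNA2 at 0.27. Values under 0.5 FPKM, as those of EPHA4 and EPHA7, are the least certain, since the number of reads behind them is unknown.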

Other observations

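For each of the 9 genes the tested gene with the most alike pattern over the 6 libraries was looked up, by the distance between log2 values centred on their own mean. It was DNAJB14 for EPHA2 (distance 0.108), with 11.8 FPKM in epithelial and 22.1 FPKM in fiber cells on average. It was IL22RA1 for EPHA3 (0.122), GMFB for EPHA4 (0.435), WDR25 for EPHA7 (0.132), ZNF536 for EPHB2 (0.118), MRPL48 for EPHB3 (0.0634), LRP3 for EFNA5 (0.127), HDX for EFNB1 (0.0864) and FUBP1 for EFNB2 (0.187). Over 6 libraries of 2 cell types such distances mainly reflect the difference between the cell types, and none of these genes belongs to the lists above.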
